A study of Mus musculus with 28 samples.

Results

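Inhibitor of DNA binding (Id) proteins and the E proteins they bind were followed through the differentiation of C2C12 cells, an immortalised mouse myoblast line that leaves the cell cycle and fuses into myotubes when serum is lowered. The members were the rows of the count table whose symbol was Id1, Id2, Id3, Id4, Tcf3, Tcf4, Tcf12 or Msc, and all 8 were found among 49089 genes. Cells were kept in growth medium (GM) with 20% fetal bovine serum and, at 90% confluence, moved to differentiation medium (DM) with 3% horse serum. RNA-seq covered 18 libraries, 3 in GM and 3 each at 12, 24, 48, 60 and 96 h in DM. Open chromatin (ATAC-seq, 2 libraries per condition) and chromosome contacts (Hi-C, 3 libraries per condition) were measured in GM and at 60 h in DM. All groups are 1 unmodified cell line, with no transgene or deletion named in the labels, so the cultures model muscle without the other cells of the tissue.

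E proteins are basic helix-loop-helix transcription factors that pair with MyoD, Myf5 or myogenin and bind E-box sequences in muscle genes. Id proteins have the helix-loop-helix part but no basic, DNA-binding part, so an E protein held by an Id protein cannot bind DNA; serum and bone morphogenetic proteins (BMPs), through SMAD factors, are known to raise Id gene transcription in myoblasts. Musculin, the product of Msc, is a basic helix-loop-helix repressor that also pairs with E proteins and binds E-boxes.

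The members lie apart in the genome (mm10). The Id genes are small, with Id1 (ENSMUSG00000042745.9) at chr2:152736251-152737410, Id2 (ENSMUSG00000020644.8) at chr12:25093799-25096092, Id3 (ENSMUSG00000007872.3) at chr4:136143822-136145392 and Id4 (ENSMUSG00000021379.1) at chr13:48261116-48266028. The E protein genes are Tcf3 (ENSMUSG00000020167.14) at chr10:80409541-80433976, Tcf4 (ENSMUSG00000053477.16), the longest member, and Tcf12 (ENSMUSG00000032228.16) at chr9:71844252-72111893. Msc (ENSMUSG00000025930.6) lies at chr1:14753344-14756089. All 8 are annotated as protein-coding. Annotated genes overlap Id4, Tcf4, Tcf12 and Msc, and no source used here says whether reads were counted by strand, so some of the reads of those 4 may belong to the overlapping genes.

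Promoter sequences are shown for 2 Id genes that fell and for 2 E protein genes that moved in opposite directions, because the ATAC-seq lists hold a peak over each of these stretches in both conditions. Each is the 250 bases before a RefSeq transcript start (GRCm38.p6, the assembly of mm10), with every E-box, CANNTG on either strand, in capitals. The stretches are Id2 at chr12:25096093-25096342 (minus strand), Id3 at chr4:136143572-136143821 (plus strand), Tcf3 at chr10:80433636-80433885 (minus strand) and the first start of Tcf12 at chr9:72111820-72112069 (minus strand).
Id2: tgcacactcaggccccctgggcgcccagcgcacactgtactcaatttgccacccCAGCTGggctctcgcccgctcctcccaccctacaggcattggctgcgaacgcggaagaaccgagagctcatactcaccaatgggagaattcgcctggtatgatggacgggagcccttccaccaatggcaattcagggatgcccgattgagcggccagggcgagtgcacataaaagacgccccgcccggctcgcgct
Id3: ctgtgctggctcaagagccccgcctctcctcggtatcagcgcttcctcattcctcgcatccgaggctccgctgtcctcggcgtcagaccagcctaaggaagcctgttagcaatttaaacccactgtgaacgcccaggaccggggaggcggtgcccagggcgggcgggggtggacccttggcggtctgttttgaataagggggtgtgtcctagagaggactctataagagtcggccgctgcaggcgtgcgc
Tcf3: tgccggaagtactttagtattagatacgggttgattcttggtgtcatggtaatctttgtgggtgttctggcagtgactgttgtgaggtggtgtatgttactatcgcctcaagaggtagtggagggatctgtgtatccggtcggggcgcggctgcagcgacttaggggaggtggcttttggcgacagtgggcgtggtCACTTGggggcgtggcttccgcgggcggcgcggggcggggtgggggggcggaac
Tcf12: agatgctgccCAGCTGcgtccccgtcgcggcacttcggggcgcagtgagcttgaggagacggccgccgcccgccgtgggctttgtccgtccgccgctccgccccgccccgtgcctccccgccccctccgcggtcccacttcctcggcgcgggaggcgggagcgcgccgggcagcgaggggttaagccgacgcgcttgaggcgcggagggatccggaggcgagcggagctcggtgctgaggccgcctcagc
Id2 held 1 E-box, CAGCTG, at position -196 counted from the transcript start, and Tcf12 held the same letters at -240. Tcf3 held 1 E-box of other letters at -54, and no E-box was found in these bases of Id3 or Id4. Of 20998 promoter stretches of the same length, 62.8% held at least 1 CANNTG and 12.2% held CAGCTG, so the presence of an E-box is common. CCAAT, which overlaps none of these motifs, occurred 3 times in the Id2 stretch and 2 times in that of Id4, against at least 1 in 35.3% of all stretches. A BMP SMAD element, GCCGNCGC on either strand, was found 1 time in Id4 and 2 times at the first start of Tcf12, and in 8.97% of all stretches. Matches describe letters only, and no binding was measured here.

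Library depth ran from 24154680 to 36405121 counts, and all 8 members were among the 15303 genes that passed the filter on low counts. Levels are in CPM, the standard scaling of a count by the size of its library, here after trimmed-mean (TMM) normalisation, and since no transcript lengths were used, levels are compared between groups of libraries and not between genes. Myoblast markers (Myod1, Myf5, Des, Cdh15) were detected in all libraries, with summed levels of 812 to 843 CPM in GM and 2060 to 2290 CPM at 96 h. The endothelial markers summed to at most 0.367 CPM and the macrophage markers to at most 2.35 CPM, with none of the macrophage marker Adgre1 in any library. Replicate 3 at 24 h stood apart from its group: 86 of 9119 well-detected genes were at least 0.5 log2 units above both other libraries there, against 0 to 4 in every other library. By another measure, the chi-square of counts per degree of freedom within a group, 12 h replicates 1 and 3 differed most (53.2). Every other pair was at 20.3 or less, with 12 and 19.8 for the pairs of 24 h replicate 3. The labels name no separate cultures, and the spread behind each p-value is that among these libraries, which may be technical. In bulk RNA, fewer expressing cells and less RNA per cell cannot be told apart.

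Id1, Id2 and Id3 fell within 12 h of the serum switch and stayed below GM to 96 h, while Tcf3 fell more slowly and Tcf4 and Tcf12 rose. At 12 h 4 members were called lower than GM (Id1, Id2, Id3, Tcf3) and 1 higher (Tcf4), where 35% of all genes tested were called, 17.2% lower and 17.8% higher (edgeR quasi-likelihood test, Benjamini-Hochberg adjusted p under 0.05 over all genes). At 24 h 7 of 8 members were called, against 60.8% of all genes. At 48 h 6 of 8 were called, against 65.4%, and at 60 h 7 of 8, against 65.3%. At 96 h all 8 were called, against 68.8%. Over the whole course 7 of 8 members differed among the 6 groups, the exception being Id4 (adjusted p = 0.0591), where 86% of all genes did. Shares near the background say little about the members as a set, and the size and order of their changes are given below. Being called lower at all 5 times was less common, at 7.57% of all genes, and Id1, Id2, Id3 and Tcf3 met it; being called higher at all 5 times was met by 8.08% of genes and by Tcf4.

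**Figure D1:**
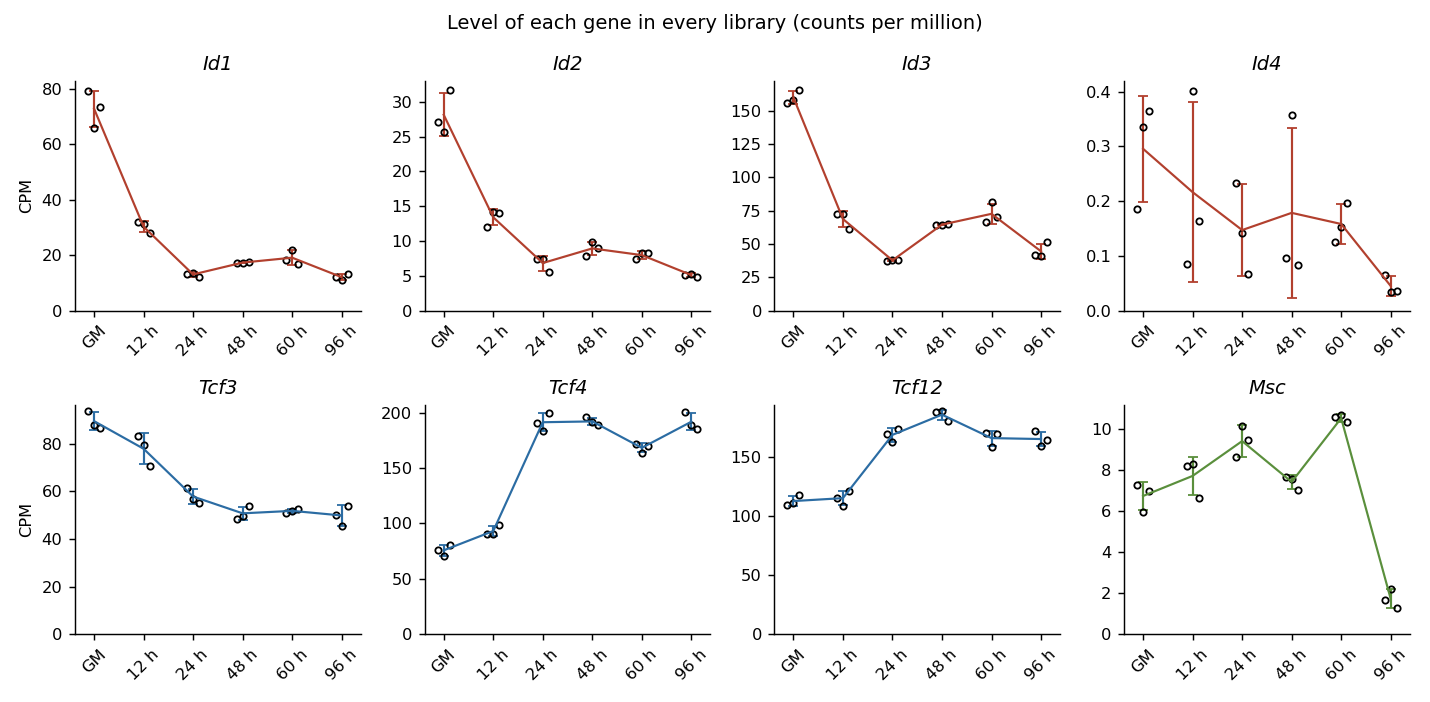
CPM (vertical axis, from 0, a separate scale for each gene) of the 8 genes in each of 18 libraries (open circles), by group, with the mean and SD of 3 libraries as a line and bars. Id1, Id2 and Id3 dropped between GM and 24 h and partly recovered by 48 h, Tcf3 fell, Tcf4 and Tcf12 rose between 12 and 24 h, and the Msc libraries lay below all GM libraries at 96 h.

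Id1, an Id protein strongly induced by BMPs, had 79.0, 66.0 and 73.5 CPM in the 3 GM libraries and 31.8, 31.1 and 27.9 CPM at 12 h. At 24 h the libraries held 13.3, 13.7 and 12.1 CPM, followed by 17.2, 17.3 and 17.4 CPM at 48 h, 18.4, 22.0 and 16.8 at 60 h, then 12.0, 10.9 and 13.2 CPM at 96 h. No library in DM reached the lowest GM library, and the 12 h libraries lay above every later one. The log2 fold change against GM was -1.27 ± 0.080 (SE) at 12 h, -2.48 ± 0.087 at 24 h, -2.07 ± 0.086 at 48 h, -1.93 ± 0.085 at 60 h and -2.60 ± 0.089 at 96 h, with the largest adjusted p 1.74e-10. Id1 was 6.05-fold lower at 96 h. At 24 h 0.438% of all genes had a lower log2 fold change than Id1, and at 60 h 1.67% did.

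Id2, which in other tissues also restrains E proteins in lymphoid and neural precursors, followed a like course. GM libraries held 27.1, 25.7 and 31.6 CPM, those at 12 h 12.1, 14.2 and 14.0 CPM, and those at 24 h 7.48, 7.42 and 5.58 CPM. Later levels were 7.91 to 9.88 CPM at 48 h, 7.36, 8.29 and 8.25 at 60 h, then 5.17, 5.31 and 4.82 CPM at 96 h. GM did not overlap any later group. Its log2 fold change against GM went from -1.07 ± 0.098 at 12 h to -2.04 ± 0.107 at 24 h, -1.82 ± 0.107 at 60 h and -2.46 ± 0.112 at 96 h (largest adjusted p 4.17e-08), so that it was 5.51-fold lower at 96 h.

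Id3, first described as an immediate early gene of the serum response, fell as well. It had 156, 158 and 166 CPM in GM, 72.6, 72.3 and 61.5 CPM at 12 h, and 36.9, 38.3 and 38.0 CPM at 24 h. Levels then stood at 64.5, 64.2 and 65.1 CPM at 48 h, 66.7, 81.3 and 70.0 at 60 h, then 41.4, 40.9 and 51.2 CPM at 96 h. All libraries in DM lay below all GM libraries, with the lowest mean at 24 h. The log2 fold change against GM was -2.09 ± 0.080 at 24 h, -1.14 ± 0.077 at 60 h and -1.85 ± 0.079 at 96 h (largest adjusted p 1.55e-10). The libraries at 60 h overlapped those at 12 h.

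The steps between neighbouring times showed a fall, a rise and a second fall in the Id genes. From 12 to 24 h, where 7 of 8 members and 54.3% of all genes were called, Id1 fell by 1.21, Id2 by 0.97 and Id3 by 0.87 on the log2 scale. From 24 to 48 h, where 6 of 8 members and 32.3% of genes were called, all of these rose: Id3 by 0.77 ± 0.080 (adjusted p = 1.55e-07), Id1 by 0.41 ± 0.094 (adjusted p = 0.00211) and Id2 by 0.38 ± 0.117 (adjusted p = 0.0159). The rise of Id2 was not called when replicate 3 of 24 h, the library that stood apart, was left out (0.25, adjusted p = 0.116), nor without replicate 2 or 3 of 48 h (0.28, adjusted p = 0.118, and 0.35, adjusted p = 0.0563). Between 48 and 60 h, where 3 of 8 members and 27.2% of genes were called, none of Id1, Id2 and Id3 was called. From 60 to 96 h, where 5 of 8 members and 47.2% of genes were called, Id1 fell by 0.66, Id2 by 0.65 and Id3 by 0.71, with the largest adjusted p 0.000202.

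Id4, best known in neural and gonadal tissue, was close to the limit of detection. It had 5, 11 and 11 counts in the GM libraries, 3, 15 and 6 at 12 h, 7, 5 and 2 at 24 h, 3, 10 and 2 at 48 h, 3, 4 and 6 at 60 h, then 2, 1 and 1 at 96 h. Groups overlapped GM except at 96 h, the one time at which it was called (log2 fold change -2.62 ± 0.75, adjusted p = 0.00378). Pooled over libraries, 27 counts in GM against 4 at 96 h gave a 6.66-fold ratio after scaling, with an exact 95% interval from 2.32 to 26.2 that covers counting error only. Leaving out replicate 2 of 48 h, its highest library at that time, made the difference at 48 h a call as well (-1.71, adjusted p = 0.0382). The test over all 6 groups then also passed (adjusted p = 0.0193), as it did without GM replicate 1, 12 h replicate 1 or 2, or 24 h replicate 1 (adjusted p from 0.0269 to 0.0465).

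**Figure D2:**
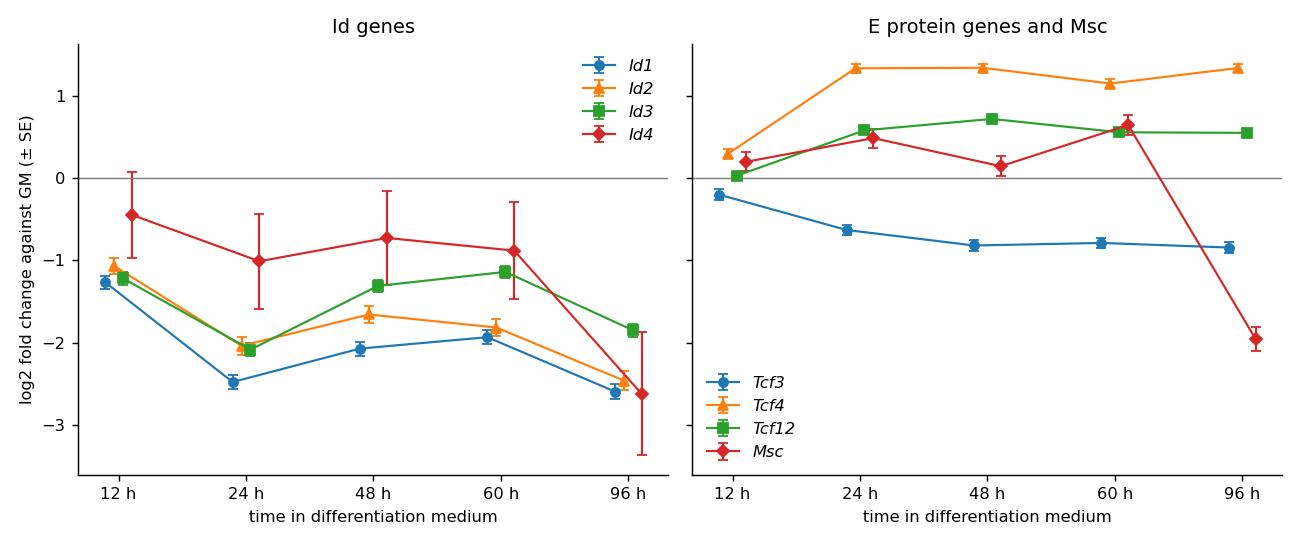
Log2 fold change against GM (vertical axis) with its SE at 12, 24, 48, 60 and 96 h in DM, for the Id genes (left) and for the E protein genes and Msc (right). Id1, Id2 and Id3 lie between -1.07 and -2.60 at all times, Tcf4 reaches 1.34, and Msc moves from 0.65 at 60 h to -1.96 at 96 h.

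Among the E proteins, Tcf3, whose splice forms are the E2A proteins that classically pair with MyoD, was the one that fell. Its GM libraries held 93.9, 87.8 and 86.6 CPM, those at 12 h 83.3, 79.4 and 70.7 CPM, and those at 24 h 61.3, 56.8 and 55.2 CPM. From 48 h it levelled off, with 48.5, 49.8 and 53.9 CPM at 48 h, 50.8, 51.8 and 52.7 at 60 h, then 50.1, 45.4 and 54.0 CPM at 96 h. No DM group overlapped GM, and the groups from 48 h on overlapped each other. The log2 fold change against GM was -0.63 ± 0.064 at 24 h, -0.82 ± 0.065 at 48 h, -0.79 ± 0.065 at 60 h and -0.84 ± 0.065 at 96 h (largest adjusted p 2.55e-08), a 1.79-fold lower level at 96 h. The small difference at 12 h (-0.20 ± 0.063, adjusted p = 0.0177) was not called without GM replicate 1 (adjusted p = 0.143), GM replicate 2 (0.0615), 12 h replicate 2 (0.0567) or 12 h replicate 3, where it was -0.11 (adjusted p = 0.206). The step from 24 to 48 h (-0.19 ± 0.066, adjusted p = 0.0322) likewise was not called without replicate 1 of 24 h (adjusted p = 0.0895), replicate 1 of 48 h (0.107) or replicate 2 of 48 h (0.0605).

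Tcf4, whose product is best known from neural and plasmacytoid dendritic cell development, rose. It is a different gene from Tcf7l2, the Wnt effector that shares its older name. GM libraries had 75.8, 70.8 and 80.5 CPM, and those at 12 h 90.2, 90.5 and 98.8 CPM. By 24 h it stood at 191, 184 and 200 CPM, with 196, 192 and 189 CPM at 48 h, 171, 164 and 170 at 60 h, then 201, 189 and 185 CPM at 96 h. Every DM library exceeded every GM library. The log2 fold change against GM was 0.30 ± 0.051 at 12 h (adjusted p = 0.000116) and 1.34 ± 0.052 at 24 h (adjusted p = 3.28e-15), and Tcf4 was 2.53-fold above GM at 96 h. The largest step was from 12 to 24 h (1.04 ± 0.051); a dip from 48 to 60 h (-0.19 ± 0.050, adjusted p = 0.00755) was followed by a rise of the same size to 96 h (0.19 ± 0.050, adjusted p = 0.00368). At 60 h 92.1% of all genes had a lower log2 fold change than Tcf4.

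Tcf12, which encodes the E protein HEB, a partner of MyoD and myogenin, rose later and less. Its GM libraries had 110, 111 and 118 CPM and those at 12 h 116, 109 and 122 CPM, which overlapped GM (log2 fold change 0.03 ± 0.048, adjusted p = 0.656). By 24 h it stood at 170, 163 and 174 CPM, followed by 188, 189 and 181 CPM at 48 h, 170, 159 and 170 at 60 h, then 172, 160 and 164 CPM at 96 h. Each group from 24 h on lay clear of GM. Against GM the log2 fold change was 0.58 ± 0.048 at 24 h, 0.72 ± 0.048 at 48 h, 0.56 ± 0.048 at 60 h and 0.55 ± 0.048 at 96 h (largest adjusted p 1.35e-09), or 1.47-fold at 96 h. A further rise from 24 to 48 h (0.14 ± 0.047, adjusted p = 0.0286) was not called when any 1 of 9 libraries was left out: GM replicate 2, 24 h replicates 1 and 2, or any library of 48 h or 96 h (adjusted p from 0.0783 to 0.179). The fall from 48 to 60 h (-0.16 ± 0.048, adjusted p = 0.0145) was not called without 60 h replicate 2 (-0.13, adjusted p = 0.0822).

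The mean level of Msc was above that of GM from 12 to 60 h and below it at 96 h. It had 7.26, 5.96 and 6.98 CPM in GM, 8.22, 8.28 and 6.64 CPM at 12 h, and 8.61, 10.1 and 9.47 CPM at 24 h. Levels were 7.65, 7.59 and 7.02 CPM at 48 h, then 10.6, 10.7 and 10.3 CPM at 60 h, before they dropped to 50, 66 and 37 counts, or 1.72 ± 0.464 CPM (SD, n = 3), at 96 h. The 96 h libraries lay below all others, while 12 h and 48 h overlapped GM and 24 h and 60 h lay above it. Msc was higher than GM at 24 h (0.49 ± 0.115, adjusted p = 0.000994) and 60 h (0.65 ± 0.116, adjusted p = 4.78e-05) and lower at 96 h (-1.96 ± 0.147, adjusted p = 9.43e-11), and it fell by 2.60 ± 0.141 on the log2 scale from 60 to 96 h (adjusted p = 1.92e-12), which is 6.08-fold. It rose from 48 to 60 h (0.50 ± 0.116, adjusted p = 0.00294). The difference at 12 h (0.20 ± 0.116, adjusted p = 0.198) was called only without 12 h replicate 3 (0.32, adjusted p = 0.0432). Called steps from 12 to 24 h (0.29 ± 0.112, adjusted p = 0.0339) and from 24 to 48 h (-0.34 ± 0.115, adjusted p = 0.027) were each lost without some single libraries. For the first these were 12 h replicate 3, 24 h replicates 2 and 3, 48 h replicates 2 and 3 and 96 h replicate 1 (adjusted p from 0.053 to 0.176); for the second, 24 h replicates 2 and 3 and 48 h replicate 3 (adjusted p from 0.0522 to 0.102).

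The ratio of the reads of Id1 to Id4 to those of Tcf3, Tcf4 and Tcf12 was compared across groups. Transcript lengths do not cancel in it, since the mix within each sum changed. From GM to 96 h Tcf3 went from 32.2% to 12.2% of E protein reads and Tcf4 from 27.2% to 47.1%. Over the same time Id1 went from 27.8% to 19.5% of Id reads. The size of a change in the ratio therefore depends on lengths that were not used. Per library, there were 0.939, 0.928 and 0.952 Id reads for each E protein read in GM and 0.403, 0.423 and 0.356 at 12 h. The ratio was 0.137, 0.148 and 0.130 at 24 h, 0.207, 0.213 and 0.216 at 48 h, 0.236, 0.299 and 0.243 at 60 h, then 0.139, 0.145 and 0.171 at 96 h. The GM libraries stood above all others and the 12 h libraries above all later ones, and the 24 h and 96 h libraries overlapped. Means were 0.940 ± 0.012 (SD, n = 3) in GM, 0.138 ± 0.0090 at 24 h, 0.259 ± 0.034 at 60 h and 0.152 ± 0.017 at 96 h. Summed Id levels were 261 ± 10.7 CPM in GM, against 57.7 ± 1.97 CPM at 24 h, and summed E protein levels from 278 ± 7.87 to 418 ± 13.2 CPM. These are sums of reads, not corrected for transcript length, and no test was made on them.

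**Figure D3:**
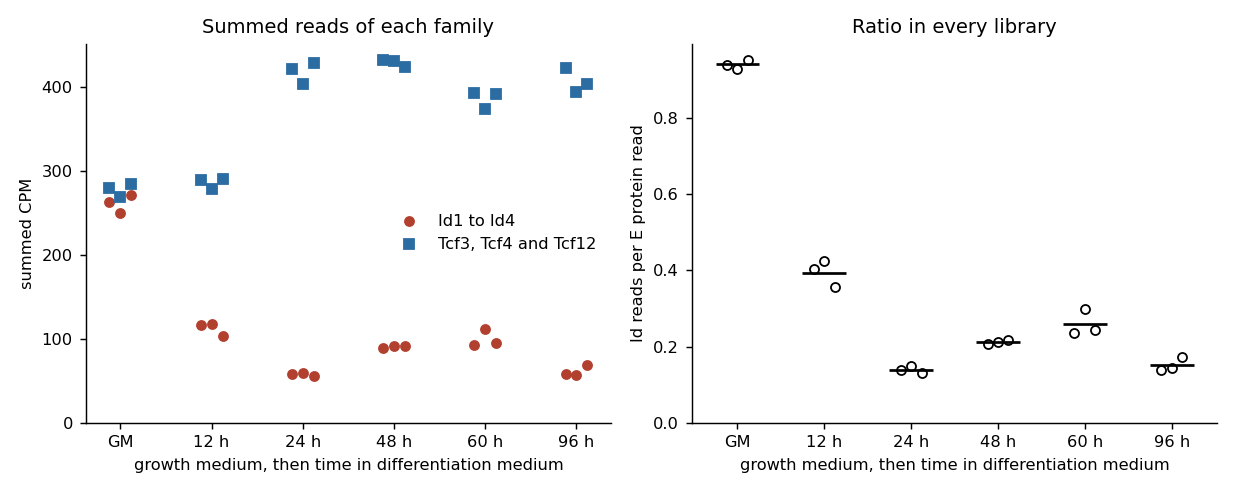
Left, summed CPM of the 4 Id genes (circles) and of the 3 E protein genes (squares) in each library. Right, Id reads for each E protein read in each library, with the group mean as a line; the mean goes from 0.940 in GM to 0.138 at 24 h, 0.259 at 60 h and 0.152 at 96 h.

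Within a family the members did not move equally. In a ratio of 2 genes from the same library the transcript lengths cancel when groups are compared, provided that each gene keeps the same mix of transcripts. Whether the mix stayed the same was not tested. The log2 ratio of Id1 to Id3 was -1.14 ± 0.142 (SD, n = 3) in GM and -1.93 ± 0.107 at 60 h, a 1.73-fold shift towards Id3, and the groups did not overlap. Id2 shifted against Id3 in the same direction by 1.59-fold at 60 h, while the log2 ratio of Id1 to Id2 at 60 h and 96 h overlapped that in GM. At 24 h (0.83 to 1.11) and 48 h (0.81 to 1.12) it lay below that in GM (1.22 to 1.54). Tcf3 against Tcf4 went from 0.24 ± 0.117 in GM to -1.70 ± 0.048 at 60 h and -1.95 ± 0.147 at 96 h, a 4.56-fold change by 96 h. Tcf3 fell 2.64-fold against Tcf12 and Tcf4 rose 1.73-fold against Tcf12 by 96 h, again without overlap. With 3 against 3 libraries the exact two-sided permutation test cannot go below p = 0.1, which the 10 comparisons without overlap reached (0.12 after adjustment over the 12 made), so none can pass 0.05.

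Which genes shared each pattern was read from the Pearson correlation of log2 CPM over the 18 libraries with each of 9119 well-detected protein-coding genes, as a description of libraries that share groups and depth. Id1 and Id2 were nearest to each other (r = 0.97). Id3 was nearest to Id1 (0.94), with Kctd15 and the serum-response gene Ier2 next. Kctd15 and Adpgk followed for Id1 (both 0.96), and Ado and Csrp2bp for Id2 (both 0.95). Nearest to Tcf3 were Ttc7 (0.99), Pfn1, which encodes the actin-binding protein profilin (0.98), and Zfp365 (0.98); to Tcf4, Pcdh7, a protocadherin, Bnc2 and Zfand5 (all 0.99). Phldb2, Hdac9, a histone deacetylase that represses MEF2 factors, and Rnf13 (all 0.98) were nearest to Tcf12, and F2r, the thrombin receptor gene (0.95), Cmpk1 (0.94) and S100a4 (0.93) to Msc. For Id4, with its few counts, the highest values were 0.82 for Zbtb21, 0.80 for Sgpp1 and 0.77 for Plekha3. Tcf4 correlated with Tcf12 at 0.97 and with Tcf3 at -0.95.

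The myogenic factors that pair with E proteins changed unequally. Myog, which encodes myogenin, rose from 13.4 ± 0.20 CPM in GM, reaching 388 ± 29.6 CPM at 60 h, then 803 ± 15.3 CPM by 96 h (log2 fold change 4.86 ± 0.073 at 60 h, adjusted p = 8.18e-22). Myod1 rose by 0.69 ± 0.070 at 60 h and Myf5, an early determination factor, fell by 0.70 ± 0.056. Myf6, a late factor, had 5 to 12 counts in GM and 7 to 14 at 60 h and was not called (0.14 ± 0.48, adjusted p = 0.823). Of 10 muscle genes with well-known E-box promoters all were called higher at 60 h, with a median log2 fold change of 3.15, beside 33.1% of all genes called higher and a median of 0.01. Ckm, the muscle creatine kinase (6.09 ± 0.156), Tnni1, a slow troponin I (4.98 ± 0.088), Myog and Myl1, a myosin light chain (4.31 ± 0.078), changed most. Of these 10 genes 7 were already called higher at 12 h, beside 17.8% of all genes. Among the E protein genes, Tcf4 was called higher at that time, Tcf3 lower, and Tcf12 was not called.

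Among other repressors at E-boxes and inhibitors of MyoD, more genes were called higher than lower at 60 h, a split that was even or nearly so at 12 h and 96 h. At 12 h 4 were higher and 4 lower (median log2 fold change -0.06), where 35% of all genes were called. At 96 h 6 were higher and 5 lower (median 0.04), where 68.8% of all genes were called. Of 12 tested of 14, 8 were called higher and 3 lower at 60 h (median log2 fold change 0.46), against 33.1% of all genes called higher and 32.2% lower. Hes6, counted among these 8 although it is known to promote myogenic differentiation, rose by 2.16 ± 0.064, from 24.5 ± 0.82 to 110 ± 4.70 CPM. Zeb1, a zinc-finger repressor at E-boxes, rose by 1.31 ± 0.048, and Twist2, a helix-loop-helix protein that restrains MyoD, fell by 1.92 ± 0.102. Mdfi, which holds MyoD family factors in the cytoplasm, had 0 to 2 counts in GM and 4 to 13 at 60 h (adjusted p = 0.00336). Mdfi, also counted among these 8, passed the filter only through libraries in DM, so its direction was set by the filter. Among the ETO corepressors of E proteins, Cbfa2t3 rose (2.54 ± 0.414, from 0.167 ± 0.115 to 0.983 ± 0.106 CPM), Cbfa2t2 fell slightly (-0.13 ± 0.049, adjusted p = 0.023) and Runx1t1 was not called (-0.24 ± 0.355, adjusted p = 0.573).

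Genes of the BMP pathway, which drives Id transcription, were mixed at 60 h, when 33.1% of all genes were called higher and 32.2% lower. Of 7 ligand genes 2 passed the filter, and both were higher. Bmp4 had 3.49 ± 0.391 CPM in GM and 16.4 ± 0.591 CPM at 60 h (2.24 ± 0.087, adjusted p = 2.12e-15). Gdf5 had no count in any GM library, 3 to 7 at 60 h and 21 to 30 at 96 h. With at most 0.291 CPM at 60 h and at least 0.738 CPM at 96 h, Gdf5 passed the filter only through late libraries. Its direction against GM was thus set by the filter and is not a finding. Of 7 receptor genes tested of 8, Acvr2a (0.74 ± 0.063) and Bmpr1a (0.47 ± 0.046) rose and Acvr1, a type I receptor, fell (-0.49 ± 0.071). Of the SMADs that carry the BMP signal, Smad9 fell by 2.09 ± 0.211, from 4.50 ± 0.261 to 1.05 ± 0.324 CPM. Smad1 (0.01 ± 0.049, adjusted p = 0.913), Smad5 (0.02 ± 0.041, adjusted p = 0.663) and the shared partner Smad4 (-0.08 ± 0.051, adjusted p = 0.165) were not called. Of 12 antagonists and inhibitors, 3 were higher and 6 lower (median -0.30, against 0.01 over all genes). Fst, which encodes follistatin, a secreted antagonist of activins, myostatin and some BMPs, went from 2.14 ± 0.426 to 26.3 ± 1.56 CPM (3.63 ± 0.114) and stood between 94.0 and 105 CPM at 96 h. Chrd, the secreted antagonist chordin, rose by 1.19 ± 0.109, whereas Smad7, an inhibitory SMAD that is itself induced by the pathway, fell by 1.21 ± 0.086.

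**Figure D4:**
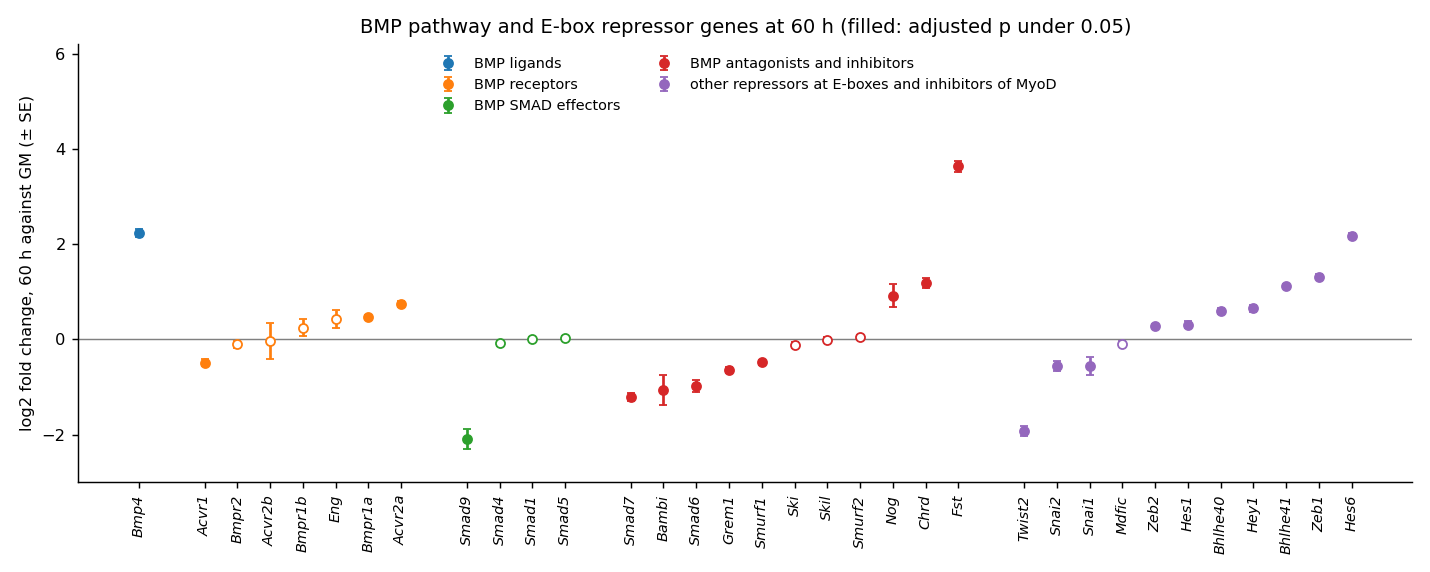
Log2 fold change at 60 h against GM (vertical axis, with SE) of tested genes of the BMP pathway and of other E-box repressors, grouped by role; filled points were called at adjusted p under 0.05. Gdf5 and Mdfi, with a mean under 0.1 CPM in GM, are left out, as is 1 antagonist gene; Bmp4 and Fst stand at 2.24 and 3.63, and Smad9, Smad7 and Twist2 at -2.09, -1.21 and -1.92.

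Of 8 serum and stress response factors that act upstream of Id genes, 2 were higher and 4 lower at 60 h, beside 33.1% of all genes higher and 32.2% lower. Myc, a transcription factor induced by serum, fell by 1.91 ± 0.128 and Atf3, a stress factor known to repress Id1 together with SMADs in human epithelial cells, fell by 1.55 ± 0.098. Egr2 rose by 0.84 ± 0.100 and Egr1, an immediate early serum factor, was 0.31 ± 0.114 lower (adjusted p = 0.0228). Of 4 genes for Id protein turnover none was higher and 3 were lower, a list too short to set against those shares. Usp1, a deubiquitinase known from human cells to spare Id proteins from degradation, had 76.8 ± 3.02 CPM in GM, 40.6 ± 1.19 CPM at 60 h, then 23.9 ± 2.07 CPM by 96 h (-0.92 ± 0.065 at 60 h, adjusted p = 5.8e-11). Fzr1, an activator of the ubiquitin ligase that targets Id2 in neurons, was lower as well (-0.75 ± 0.081), Cops5 slightly so (-0.11 ± 0.045, adjusted p = 0.0408), and Wdr48, the partner of Usp1, was not called (0.06 ± 0.052, adjusted p = 0.312). Reserve cells are myoblasts that stay undifferentiated in such cultures, and Id genes are known to be kept on in them. Of their 4 markers, Spry1 and Heyl were higher and Cd34 was lower at 60 h, Pax7 was not called (-0.0019 ± 0.102, adjusted p = 0.988), and the summed level was 47.3 to 48.5 CPM in GM, 60.4 to 62.6 CPM at 48 h, 51.1 to 54.2 CPM at 60 h, then 42.5 to 45.9 CPM by 96 h. No marker was at 0 in any group, and the part of these cells in the levels of the Id genes was not tested. Of the osteoblast markers only Runx2 was tested (lower at 60 h, -1.09 ± 0.110), and of the adipocyte markers only Pparg (lower, -1.19 ± 0.095).

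Open chromatin was listed at the promoters in both conditions. All 7 members that could be looked up had an ATAC-seq peak at their promoter in both lists, where 66.0% of 17492 protein-coding genes did; the window was 1 kb either side of a RefSeq start, or of the whole gene for Id1 and Msc, whose start is not in the tables used. The authors' fold enrichment of the promoter peak was 3.81 in GM and 3.72 at 60 h for Id1, 3.85 and 4.64 for Id2, 2.58 and 2.63 for Id3, and 5.49 and 5.56 for Id4. It was 4.55 and 4.86 for Tcf3, 4.99 and 5.04 at the first start of Tcf12, and 5.06 and 5.54 for Msc. With 1 peak list per condition these values have no replicate error and no test, and they rank a peak only within its own list (median fold 2.88 in GM, 2.59 at 60 h). Peaks over the promoters of Id1, Id2 and Id3, whose RNA was lower at 60 h, were listed at 60 h too.

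Around the genes, 120 peaks lay within 10 kb of the 8 members in the GM list and 126 in the 60 h list. In GM 15.8% of them shared no base with a peak of the other list, against 19.6% of all 181622 GM peaks, and at 60 h 19.8% did, against 23.3% of all 189516. No peak was listed at 60 h alone at Id1, Id2, Id3, Id4, Tcf3 or Msc. Single peaks were listed in GM alone at Id1, Id3, Id4 and Tcf3. The Id2 locus held 6 peaks in each list, all shared, which covered 24.4% of it in GM and 14.5% at 60 h; a stretch just upstream of the gene, chr12:25097384-25099974, was a single peak in GM, with a fold enrichment of 2.34, and at 60 h was listed as the shorter chr12:25098377-25099078, with a fold of 3.75. At Id3 coverage went from 33.4% to 24.0%, where chr4:136146162-136148620 in GM (fold 1.88) stood as chr4:136147551-136148151 at 60 h (fold 2.9). Both stretches were thus listed as shorter at 60 h. Their folds rank each peak only within its own list, so no change in openness can be read from them.

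All 25 peaks listed at 60 h alone lay at Tcf4 and Tcf12, which are also the longest genes, with windows of 365 and 288 kb against 21.2 to 44.4 kb for the others. Tcf4 had 50 peaks in GM and 56 at 60 h, with 11 in GM alone (22.0% of its GM peaks, against 19.6% of all) and 17 at 60 h alone (30.4% of its 60 h peaks, against 23.3% of all), and its covered share went from 8.19% to 10.7%. The strongest of the 17 lay inside the gene at chr18:69462442-69463030, with a fold enrichment of 7.49, above 94.7% of all peaks in the 60 h list. The other 16 had folds of 1.37 to 3.14. With a −log10 q of at least 5 asked of a peak, 6 of the 11 and 4 of the 17 were left, so that GM then had more peaks of its own. Tcf12 had 38 peaks in GM and 41 at 60 h, with 4 in GM alone (10.5%) and 8 at 60 h alone (19.5%), both shares below those of all peaks, and covered shares of 7.96% and 9.77%. Of its 8 peaks at 60 h alone the strongest was at chr9:72052461-72052790 inside the gene (fold 4.46, above 76.2% of the list). A further peak of Tcf12 present in both lists, chr9:71874457-71875229 at 60 h, had a fold of 10.96, above 99.7% of that list. Covered length over the whole genome also differed, 113 Mb in GM and 127 Mb at 60 h.

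**Figure D5:**
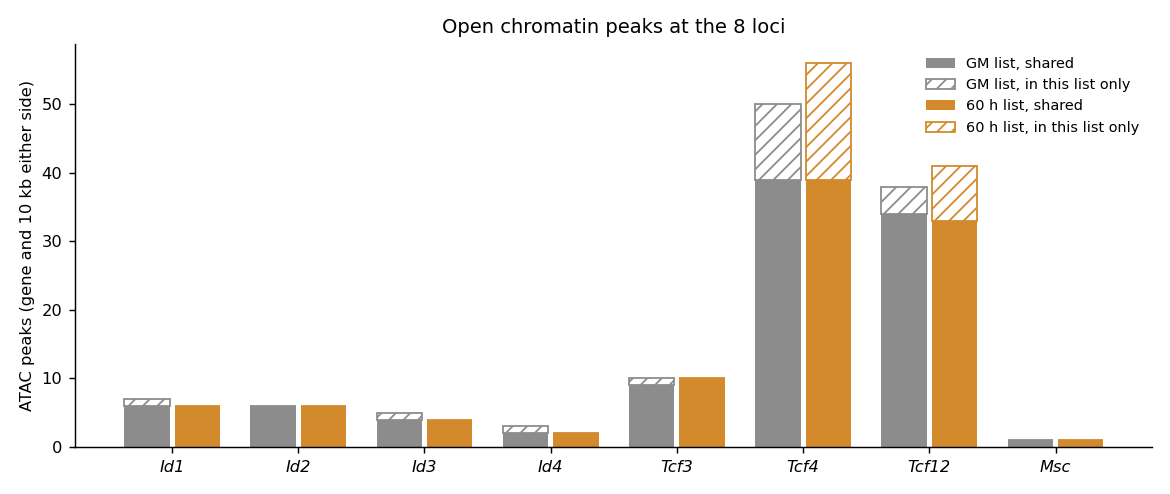
Number of ATAC-seq peaks (vertical axis) within each gene and 10 kb either side, in the GM list (grey) and the 60 h list (orange); hatched parts share no base with the other list. Peaks at 60 h alone are found at Tcf4 (17) and Tcf12 (8) and at no other member.

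The domains that hold the members were largely the same in both Hi-C sets, which were made on 40 kb bins with 1 set per condition. Id1 (1160 kb), Id2 (1400 kb), Tcf4 (1360 kb) and Msc (1120 kb) each lay in a domain with identical edges in GM and at 60 h. One edge of the domain of Id3 and of that of Id4 moved by a single bin, and both edges of that of Tcf12 did. The domain of Tcf3 was 1680 kb in GM and 3000 kb at 60 h. No boundary fell inside a member.

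Of 70 loops with a 25 kb anchor over a member's start (over the whole gene where no start was known), 31 were called in GM alone, 26 at 60 h alone and 13 in both. That is 44.3%, 37.1% and 18.6%, against 51.1%, 37.7% and 11.2% of all loops. Id3 had 4 loops, all in GM alone, spanning 850 to 1350 kb, and Id1 had 1, in GM alone, to an anchor 1200 kb away that holds the start of Fkbp1a, whose product binds type I receptors of the TGF-beta family. With anchors up to 25 kb from the start, Id3 had 9 loops, 7 in GM alone, 1 at 60 h alone and 1 in both, and Id1 had 4, 2 in each condition alone. Id2 kept an anchor in both conditions, with 2 shared loops of 325 and 400 kb, 4 in GM alone and 5 at 60 h alone. Those at 60 h alone reached 650 to 975 kb and those in GM alone 475 to 1125 kb. Every loop of Id2, in either condition, ran to the same side of the gene. Id4 had 2 shared loops and 2 at 60 h alone. Tcf3 had 1 shared loop of 75 kb and 1 of 100 kb in GM alone to the start of Atp8b3. Tcf4, by far the longest member, had 38 loops over its length, 15 in GM alone, 17 at 60 h alone and 6 shared, Tcf12 had 2 shared and 2 in GM alone, and Msc 4 in GM alone and 2 at 60 h alone. Loop counts per member are small, have no replicate and were not tested.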

How the data were processed

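The deposited count table holds whole-number read counts per gene, with no scaling. Per the submitters' processing notes, the tools were Bowtie2 2.2.6, MACS2 2.2.7, HiC-Pro, STAR, RSEM, SAMtools 1.9, DESeq2 and edgeR, with no role given, and the build was mm10. Each deposited ATAC-seq list, 1 per condition for 2 libraries, gives a fold enrichment (a ratio) and −log10 q values. The deposited boundaries carry a boundary score of unstated scale, the deposited domains a constant value, and the deposited loops a condition only. The labels call the libraries strand-specific. No source used here says whether peaks were called on pooled libraries, or with which cutoff.

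Groups and times were taken from the sample titles. The treatment text of the labels gives differing last time points, so the time of the 96 h group rests on the titles. One edgeR 4.0.16 model (R 4.3.3) covered all 18 RNA libraries (filterByExpr, TMM scaling, quasi-likelihood F test, 12 residual degrees of freedom, Benjamini-Hochberg adjustment over 15303 genes, called under 0.05); SE was taken as the size of the log2 change over the root of its F. The fit was also run on simulated data in which a small share of genes changed, in both directions and at 60 h only. In these data 60.8% of all genes were called at 24 h and 68.8% at 96 h. That run therefore says little about the scaling under such wide change. Peaks were shared when they overlapped by 1 base. The members and gene lists were chosen with earlier results of these data known. All 8 members were named, and from each list up to 4 called genes with the largest change at 60 h, or all genes of lists of up to 4, and per member the 3 genes with the most similar pattern; 1 gene that this rule names among the BMP antagonists enters the counts and is not reported here. Alternatives were other scalings, filters, DESeq2 1.42.0, the replicate block, fewer libraries, stricter peaks and wider anchors. RefSeq tables (GRCm38.p6) matched all 8 members and gave promoters for 5.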

Additional observations from a re-analysis of the deposited data

How the results depend on the processing

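For the members against GM, other scalings (RLE, upper-quartile, total count), filters, DESeq2, the replicate block and a fit on the 6 libraries of a contrast gave 310 values, all with the same direction and call. Values were missing where a member got no test. The filter on CPM gave 35, the fit on 6 libraries 36 and DESeq2 39, against 40 for each other setting. Id4, with at most 0.401 CPM in any library, did not pass the filter on CPM, so its call at 96 h was not rerun there. The steps (64 values) and the test over all groups (16) were rerun with RLE scaling and the replicate block alone, and kept their calls; 2 steps that were not called changed sign. The 7 members with a promoter peak stayed 7 with stricter peaks and with the narrower window. Anchors up to 25 kb from the start gave 94 loops against 70 (Msc 14 against 6, Id4 7 against 4, Tcf12 6 against 4). With one library left out, 4 of 720 member values against GM were no longer called and 2 became called, and in the steps 25 of 576 were no longer called; no called value changed sign, and 37 step values that were not called did. The range over the libraries left out was -0.23 to -0.11 for Tcf3 at 12 h, 0.14 to 0.32 for Msc at 12 h and -1.71 to -0.38 for Id4 at 48 h, all against GM. For the steps it was 0.19 to 0.33 for Msc from 12 to 24 h and -0.43 to -0.29 from 24 to 48 h, 0.25 to 0.46 for Id2, -0.26 to -0.17 for Tcf3 and 0.10 to 0.15 for Tcf12 from 24 to 48 h, and -0.20 to -0.13 for Tcf12 from 48 to 60 h. The F statistic of Id4 over the 6 groups ran from 1.93 to 3.74. Each fit with a library left out had fewer degrees of freedom and its own filter and scaling, so estimates moved as well. The step of Tcf12 from 24 to 48 h went from 0.140 to 0.114 without GM replicate 2, a library outside that step. The cause of the changed calls was not tested.

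No pairing by replicate number was seen: the correlation of deviations from the group means was above 0.1 in 10 of 45 same-number pairs (median -0.00163) and in 22 of 90 others. Such deviations sum to 0 within each group of 3 libraries, so the check cannot show whether libraries of the same number shared a culture. A fit with the replicate block changed no call of a member and gave 9911 genes called at 60 h against 9988 without the block. Orders and sums of levels per transcript length were not run, since no transcript lengths were used. Depth limits Id4, with at most 15 counts in a library, and 1 peak list and 1 loop set per condition allow no test between conditions.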
